A study of Mus musculus with 2 samples.

Results

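Alas1, Alas2, Alad, Uros, Urod, Cpox, Ppox and Fech encode 8 enzymes of heme biosynthesis. They were chosen by name, by a rule that uses no measured value but with earlier results of these data known, and all 8 were found among the 26124 genes of both single-cell matrices. The cells were lineage-negative bone marrow cells of C57BL/6 mice aged 8 to 10 weeks, cultured with 20 ng/ml GM-CSF, a cytokine that drives the growth of granulocytes, macrophages and dendritic cells. One library (heme) pooled cultures given 300 µM heme-albumin on day 3, and the other (control) pooled cultures given albumin alone at that time. Each library held 5 hashtagged cultures of days 0, 3, 4, 5 and 7, so that days 0 and 3 precede the addition in both libraries. The cultures of a library were pooled, and Hmox1 was far higher in the heme library already on day 0, as given below. Whether cells of days 0 and 3 carried RNA of the heme-treated cultures was not tested, so these days are no sure measure of the libraries without heme. The number of mice behind each culture is not given in the sources used here, the exposure times in the series' design text are not those that harvest on days 4, 5 and 7 would give, and the day names of the hashtags are used here.

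Heme is built from glycine and succinyl-CoA in a chain of reactions that begins in the mitochondrion, runs through the cytosol and ends in the mitochondrion, where iron is inserted into protoporphyrin. The first reaction sets the rate and is carried out by 5-aminolevulinate synthase, which has a housekeeping form, Alas1, and an erythroid form, Alas2. Alas1 is known to be held down by heme, while Alas2 is under the control of erythroid transcription factors and of iron. Red cell precursors make heme in far larger amounts than other marrow cells, since hemoglobin needs it, but the granules and respiratory enzymes of myeloid cells hold heme too.

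With 1 library per group there was no replicate, and no test between groups was possible. Levels are given in CPM, the UMIs of a gene per 1000000 UMIs summed over the cells of a library and day, and brackets hold exact 95% Poisson intervals, which cover counting error only. Ratios of 2 sums carry exact conditional 95% intervals of the same kind. A gene was counted as higher or lower where the sums differed by 2-fold or more and held 20 or more UMIs together. A UMI from a 3′ library stands for 1 transcript end, so CPM do not depend on transcript length.

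The 5 control cultures held 1716, 2170, 2310, 2699 and 3155 cells with 1 hashtag on days 0, 3, 4, 5 and 7, and the heme cultures held 1877, 3464, 3143, 2780 and 2900. The sums held 19140367 to 75505515 UMIs, and the median cell held 8850 to 19696. Of the barcodes with 1 hashtag, 49 occurred in both libraries. The libraries already stood apart on days 0 and 3. The median log2 ratio of heme over control across all tested genes was 0.48 and 0.38 on these days. It was 0.35, 0.25 and 0.30 on days 4, 5 and 7. Ribosomal protein genes took 30.3% of the UMIs of control day 0 cells and 25.7% in the heme library, and on day 7 they took 20.3% and 14.3%. A member at a ratio of 1 therefore lay below the middle gene on every day.

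In the GENCODE M21 annotation of build GRCm38, Alas1 (ENSMUSG00000032786) lies at chr9:106233455-106248654 on the minus strand and Alas2 (ENSMUSG00000025270) at chrX:150547375-150570638 on the plus strand. Alad (ENSMUSG00000028393) lies at chr4:62509169-62519918, Urod (ENSMUSG00000028684) at chr4:116989965-116994413, Uros (ENSMUSG00000030979) at chr7:133686243-133710072 and Ppox (ENSMUSG00000062729) at chr1:171275990-171281186, all on the minus strand. Cpox (ENSMUSG00000022742) lies at chr16:58670292-58717636 on the plus strand. These are protein-coding genes. Fech is ENSMUSG00000024588 in the matrices.

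The stretches before the start sites are shown for Alas2, Cpox and Alad as the members whose stretches outside annotated exons held GATAA or CACCC, a choice made by the motifs and not by the levels. GATAA is the core of the sites that GATA1 binds and CACCC the core of those that KLF1 binds, both of them erythroid transcription factors. RefSeq windows on GRCm38.p6 were used for 7 of the 8 members, with 10 start sites. The window and the position of Fech are not reported here. Of 32851 windows of 250 bases before a start site, 22.6% held GATAA and 52.0% held CACCC on either strand. GATAA occurred before the start of Alas2, of Cpox and of 1 of the 2 starts of Uros, and not in the windows of Alas1, Alad, Urod or Ppox. CACCC occurred before Alas2, Cpox, both starts of Alas1 and 1 of the 2 starts of Alad. The strands printed are those of the genes, bases within annotated exons are left out, and capitals mark GATAA or CACCC read on either strand. The motifs were matched by letters alone, did not overlap each other, and say nothing of binding. The stretches lie at chrX:150547167-150547374 (plus), chr16:58669958-58670207 (plus) and chr4:62519919-62520159 (minus), in this order.
Alas2: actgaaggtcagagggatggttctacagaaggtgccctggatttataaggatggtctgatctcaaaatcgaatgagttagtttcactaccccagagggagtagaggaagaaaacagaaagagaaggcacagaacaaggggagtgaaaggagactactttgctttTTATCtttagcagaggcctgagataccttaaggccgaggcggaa
Cpox: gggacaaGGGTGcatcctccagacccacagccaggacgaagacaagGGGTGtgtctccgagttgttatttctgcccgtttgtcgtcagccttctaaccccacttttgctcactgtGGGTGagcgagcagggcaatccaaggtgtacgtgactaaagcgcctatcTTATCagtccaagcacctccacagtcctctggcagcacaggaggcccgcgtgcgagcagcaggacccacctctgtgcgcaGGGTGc
Alad: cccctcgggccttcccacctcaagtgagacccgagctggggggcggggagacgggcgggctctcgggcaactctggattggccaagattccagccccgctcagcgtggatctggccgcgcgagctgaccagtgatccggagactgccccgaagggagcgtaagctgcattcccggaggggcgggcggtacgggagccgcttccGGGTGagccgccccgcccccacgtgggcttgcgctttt
The Cpox stretch held 4 CACCC cores and 1 GATAA core in 250 bases, the Alas2 stretch held 1 GATAA core in 208 bases (its 3 CACCC cores lay within annotated exons), and the Alad stretch held 1 CACCC core in 241 bases. No stretch of Alas1 is shown because annotated exons cover almost the whole of both windows.

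Cells of day 0 were separated by Klf1, an erythroid transcription factor that is no member: 572 of 1716 control cells (33.3%) and 528 of 1877 heme library cells (28.1%) held 1 or more Klf1 UMIs. The 12 erythroid markers other than Klf1 were detected in both cell sets, at a summed level of 5794 CPM in the Klf1 cells of the control library against 1971 CPM in the other cells, and at 4148 against 590 CPM in the heme library. The other cells were mostly myeloid but not purely so. Their granulocyte-monocyte progenitor markers summed to 10977 and 9986 CPM in the control and heme libraries, their basophil or mast cell markers to 2858 and 2370 CPM, and their megakaryocyte markers to 1075 and 1004 CPM. In the Klf1 cells these 3 lists summed to 474, 98.0 and 16.6 CPM (control library) and to 364, 201 and 99 CPM (heme library). Beta globin Hbb-bs stood at 976 CPM in the other cells of the control library, above its 741 CPM in the Klf1 cells, and 9 of those other cells held 50 or more alpha and beta globin UMIs. The median Klf1 cell held 18649 UMIs (control library) and 22818 (heme library), against 6247 and 7234 in the other cells.

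At day 0 the enzymes from Alad to Fech were higher in erythroid cells and Alas1 was lower, in both libraries. In the control library 6 of the 8 members were 2-fold or more higher in Klf1 cells, where 8.46% of 11436 tested genes were, and 1 was lower, where 25.0% were. In the heme library 7 were higher, against 7.59% of 12368 genes, and 1 was lower, against 26.2%. The median log2 ratio of the members was 2.36 and 2.06 in the control and heme libraries, and that of all tested genes was -0.081 and -0.16. The cells of a library share its preparation, so these are 2 observations of the contrast and not cell-level replicates.

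**Figure D1:**
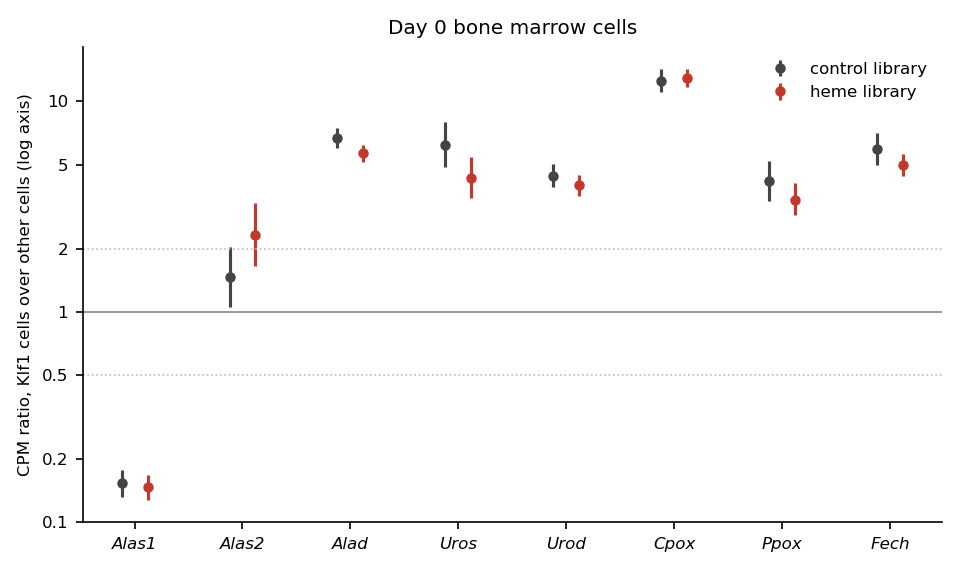
Ratio of CPM in day 0 cells with 1 or more Klf1 UMIs over other day 0 cells (log axis) for each enzyme, in the control library (grey) and the heme library (red). Points are ratios, bars their exact 95% intervals for counting error, and dotted lines mark 2-fold. Alas1 lies near 0.15 in both libraries, Alas2 at 1.46 and 2.31, and the other enzymes between 3.41 and 12.9.

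Alas1, the housekeeping first enzyme, stood at 20.0 CPM (17.4 to 22.9) in Klf1 cells of the control library and at 130 CPM in other cells. Its ratio was 0.153 (0.132 to 0.178). In the heme library it stood at 19.3 and 131 CPM, a ratio of 0.147 (0.128 to 0.169), so the libraries gave the same order and nearly the same size. It was the one member lower in erythroid cells, and 10.5% of tested genes in the control library had a lower ratio. After thinning every cell to 3000 UMIs, a UMI of Alas1 was seen in 5.49% (3.76 to 7.70, exact binomial interval) of 565 Klf1 cells and in 21.4% (18.8 to 24.2) of 906 other cells of the control library. Cells with fewer UMIs were left out, so that 565 of 572 and 906 of 1144 cells remained (heme library 521 of 528 and 1126 of 1349). Without thinning the Alas1 shares were 24.0% and 31.8%.

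Alas2, the erythroid first enzyme, was low in both cell sets. It stood at 10.3 CPM in Klf1 cells and 7.03 CPM in other cells of the control library, and at 9.15 and 3.95 CPM in the heme library. The ratios were 1.46 (1.06 to 2.04) and 2.31 (1.64 to 3.30). A handful of globin-rich cells held most of the Alas2 UMIs found outside Klf1 cells. Of the 169 Alas2 UMIs of control day 0, 109 lay in Klf1 cells, 56 in 9 cells that held no Klf1 UMI but 50 or more alpha and beta globin UMIs, and 4 in the remaining 1135 cells. In the heme library 113 of 163 lay in Klf1 cells, 40 in 4 globin-rich cells and 10 in the remaining 1345 cells. Outside Klf1 and globin-rich cells Alas2 was thus at 0.474 and 0.793 CPM. A UMI of Alas2 was seen in 3.19% (1.90 to 4.99) of thinned control Klf1 cells and in 0.662% (0.243 to 1.44) of the others, and without thinning in 10.5% and 0.962%. In thinned control cells of days 3 to 7, where erythroid cells were rare, that share was 0.105% to 0.258%, with median depths before thinning of 11372 to 15779 UMIs, against 18838 in the Klf1 cells and 7792 in the other cells of day 0.

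Alad, which joins aminolevulinate into porphobilinogen in the cytosol, stood at 285 CPM in Klf1 cells and 42.8 CPM in other cells of the control library, and at 243 and 42.8 CPM in the heme library. The ratios were 6.67 (5.98 to 7.46) and 5.68 (5.18 to 6.23). Uros, which closes the uroporphyrinogen ring, stood at 56.1 against 9.03 CPM and at 34.0 against 7.83 CPM, ratios of 6.21 (4.89 to 7.98) and 4.34 (3.48 to 5.46). Urod, which trims the side chains of that ring, stood at 160 against 36.0 CPM and at 119 against 29.9 CPM, ratios of 4.43 (3.92 to 5.02) and 3.99 (3.56 to 4.48). All of these cytosolic enzymes were higher in erythroid cells of both libraries, and for each the intervals of the libraries overlapped.

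Cpox, the mitochondrial coproporphyrinogen oxidase, had the widest gap of the members. It stood at 370 CPM in Klf1 cells and 29.4 CPM in others of the control library, and at 455 and 35.3 CPM in the heme library. The ratios of 12.6 (11.0 to 14.3) and 12.9 (11.7 to 14.2) lay above those of 99% of tested genes in each library. Ppox, which makes protoporphyrin, stood at 50.8 against 12.2 CPM and at 45.9 against 13.4 CPM, ratios of 4.17 (3.37 to 5.19) and 3.41 (2.87 to 4.08). Fech, which inserts iron, stood at 101 against 17.0 CPM and at 130 against 26.0 CPM, ratios of 5.93 (4.98 to 7.10) and 4.98 (4.42 to 5.63). A UMI of Cpox was seen in 55.6% (51.4 to 59.7) of thinned Klf1 cells and 6.73% (5.19 to 8.56) of other cells in the control library, and in 64.5% (60.2 to 68.6) and 9.33% (7.69 to 11.2) in the heme library. Without thinning these shares were 89.9% and 14.2% (control library) and 89.8% and 22.2% (heme library). With that thinning, the intervals of the shares were apart, with Klf1 cells higher, for 7 members (control library) and 6 (heme library).

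Other genes around heme synthesis were compared between the same cells of day 0, and the levels given are those of the control library. Over all tested genes 8.46% were higher and 25.0% lower in Klf1 cells of the control library, and 7.59% and 26.2% in the heme library. With lists this short, the smaller counts cannot be set apart from those shares. Of 22 genes of transport and cofactors, 7 were higher and 1 lower in Klf1 cells of both libraries. Tspo2, an erythroid relative of the mitochondrial translocator protein, stood at 141 against 7.74 CPM in the control library, and Slc25a38, the mitochondrial glycine importer, at 54.3 against 9.03 CPM. Tspo itself was lower, at 259 against 580 CPM, and mitoferrin 2, Slc25a28, stood at 23.1 against 34.2 CPM. Among the 13 tested regulators other than Klf1, 3 were higher and 1 lower in the control library, and 2 and 0 in the heme library. Gata1 stood at 164 against 18.9 CPM and Tal1, another erythroid transcription factor, at 89.5 against 25.4 CPM. Nr1d2, a heme-binding nuclear receptor, was lower, at 2.07 against 5.51 CPM, and Nfe2 stood at 33.5 against 63.2 CPM.

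Of the tested genes of heme export, binding and breakdown, 4 of 8 were higher and 2 lower in Klf1 cells of the control library, and 3 and 0 of 9 in the heme library. Hebp1, a heme-binding protein, stood at 216 against 11.4 CPM and Blvrb, a biliverdin reductase, at 1159 against 84.3 CPM. The heme oxygenases were 2-fold lower in the control library and not in the heme library. Hmox1 stood at 0.848 against 3.05 CPM (control) and at 115 against 134 CPM (heme), and Hmox2 at 30.2 against 60.6 CPM (control) and at 24.0 against 45.0 CPM (heme). Hmox1 was thus far higher in both cell sets of the heme library on day 0, a day that precedes the addition, at 124 CPM in all cells against 1.83 CPM. The cultures of a library were pooled before capture, and the part of free RNA from the later cultures in these values was not tested. Of 17 tested heme proteins and their partners, 1 was higher and 7 lower in the control library, and 3 and 6 of 16 in the heme library. The shares over all tested genes were again 8.46% and 25.0% in the control library and 7.59% and 26.2% in the heme library. Cyb5r3, the reductase that serves cytochrome b5, was higher at 113 against 35.5 CPM, and Cyb5a stood at 207 against 105 CPM. Myeloperoxidase, Mpo, stood at 102 against 2482 CPM and Ptgs2, a prostaglandin synthase, at 0.0942 against 3.17 CPM.

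**Figure D2:**
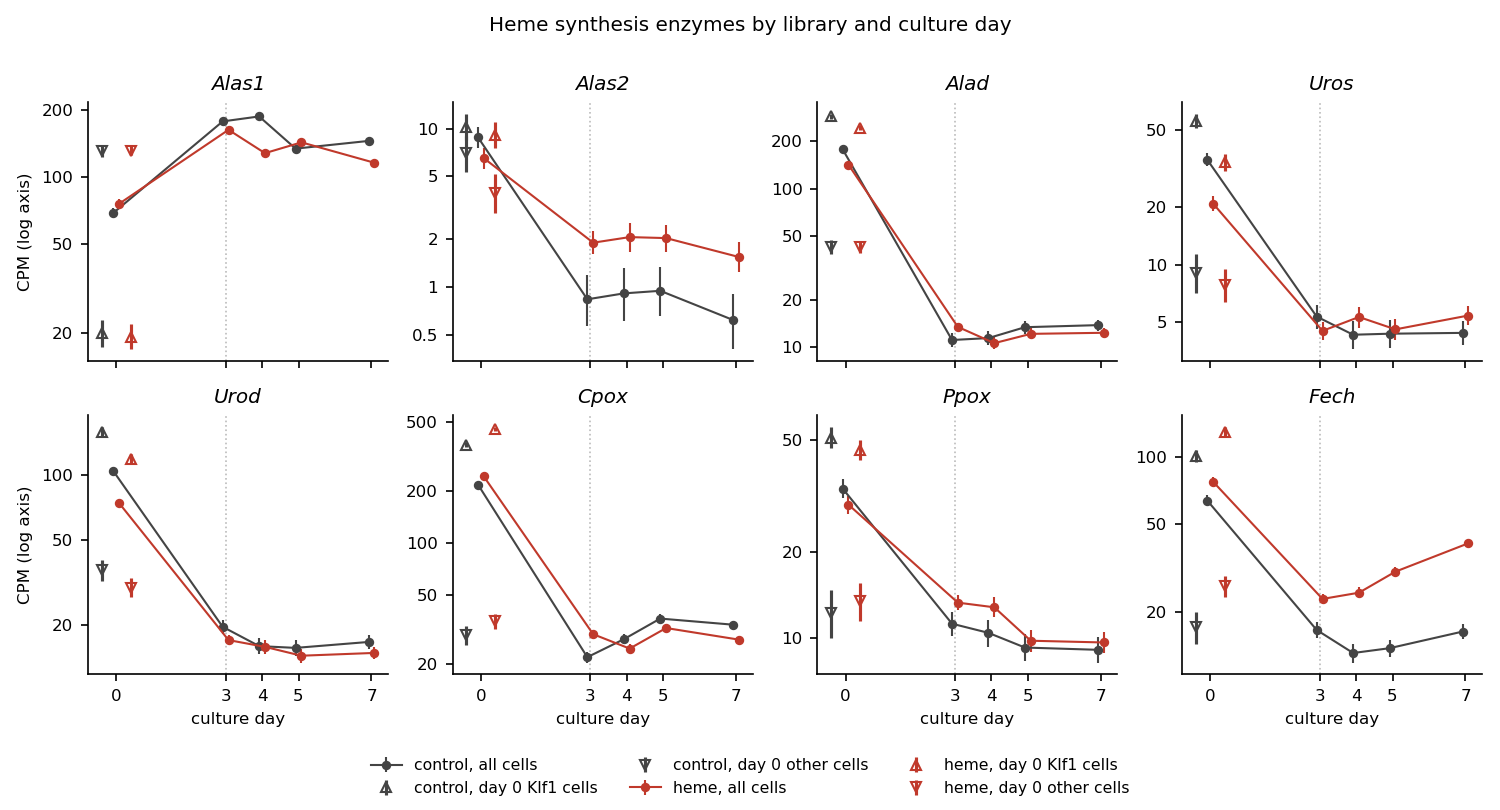
Level of each enzyme in CPM (log axis) by culture day in the control library (grey) and the heme library (red), 1 library each. Filled points are all cells of a day, open triangles day 0 cells with (pointing up) and without (pointing down) Klf1 UMIs, bars exact 95% Poisson intervals, and the dotted line the day of heme or albumin addition. From day 0 to day 3 all members but Alas1 fell. After day 3 Fech parts between the libraries, and on day 7 it lies at 40.7 CPM with heme and 16.3 CPM without.

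Between days 0 and 3 erythroid cells became rare in both cultures, and all members but Alas1 were lower on day 3. Klf1 cells made up 1.29% of control and 2.57% of heme library cells on day 3. From day 0 to day 3, 1 member was 2-fold or more higher and 7 were lower in each library. Over all tested genes 17.1% were higher and 19.5% lower in the control library, and 14.1% and 20.7% in the heme library. In bulk sums like these, fewer cells of a type and less RNA per cell cannot be told apart, and their parts were not tested. With the Klf1 cells left out of day 0 but not of day 3, no member was 2-fold higher. On that footing 2 were lower in each library, namely Alas2 and Alad. The shares of all tested genes on that footing are not given here, so this count cannot be set apart from them. Of the 60 Alas2 UMIs of these control day 0 cells, 56 lay in 9 globin-rich cells, and 40 of 50 lay in 4 such cells in the heme library. On day 3, 66 of the 144 heme library Alas2 UMIs lay in Klf1 cells. Alad fell from 42.8 to 11.1 CPM in the control library and from 42.8 to 13.5 CPM in the heme library on that footing. Ppox and Fech hardly moved, with ratios of day 3 over day 0 of 0.920 (0.740 to 1.15) and 0.974 (0.811 to 1.18) in the control library and 0.99 (0.841 to 1.17) and 0.878 (0.780 to 0.991) in the heme library.

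From day 3 on, 3 of the enzymes were steady and low. Alad stayed between 10.6 and 13.8 CPM, Uros between 4.31 and 5.43 CPM, and Urod between 14.4 and 19.6 CPM across both libraries. Ppox went from 11.2 to 9.08 CPM in the control library and from 13.3 to 9.64 CPM in the heme library between days 3 and 7. Cpox stood at 218, 22.0, 27.9, 36.7 and 33.9 CPM on days 0, 3, 4, 5 and 7 (control library) and at 243, 29.8, 24.7, 32.4 and 27.8 CPM (heme library). Between days 3 and 7 it was thus 1.54 times higher (1.41 to 1.68) in the control library and 0.930 times (0.871 to 0.993) in the heme library.

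The question put by the heme cultures was whether added heme moves the enzymes that make it. On day 7, 2 of the 8 members were 2-fold or more higher in the heme library, Alas2 and Fech, where 15.2% of 13431 tested genes were, and none was lower, where 7.32% were. On days 0, 3, 4 and 5, 0, 1, 1 and 2 members were higher, against 16.9%, 6.68%, 11.1% and 10.5% of tested genes, and none was lower on any of these days, against 0.713%, 0.351%, 1.67% and 3.56%. With 8 members, these counts are too small to set the members apart from those shares. The median log2 ratio of the members was -0.037 on day 7, and that of all genes was 0.30.

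Fech, the last enzyme, moved apart between the libraries after day 3. It stood at 63.5, 16.6, 13, 13.7 and 16.3 CPM on days 0, 3, 4, 5 and 7 in the control library, and at 77.2, 22.8, 24.4, 30.3 and 40.7 CPM in the heme library. The level rose after day 3 in the heme cultures and stayed between 13 and 16.6 CPM in the control cultures. The ratios of heme over control were 1.22 (1.13 to 1.31) and 1.38 (1.26 to 1.52) on days 0 and 3, before addition, and 1.87 (1.67 to 2.10), 2.21 (2.00 to 2.46) and 2.5 (2.30 to 2.73) afterwards. Klf1 cells were somewhat more frequent in the heme library, at 2.55% against 0.887% of cells on day 7, and Fech is high in them. Without Klf1 cells and globin-rich cells, an alternative added after the data were seen, Fech stood at 39.2 against 15.9 CPM on day 7, a ratio of 2.46 (2.25 to 2.69). The part of erythroid cells, and of the cell makeup of the cultures at large, in the Fech ratios was not tested. Divided by the ratio of day 3, the day 7 difference was 1.81-fold, the lowest of 8 alternatives. On day 0 the direction was not stable, with ratios of 0.827 to 1.67 over the alternatives.

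Alas2 was also 2-fold or more higher in the heme library from day 3 on, and this began before the addition. With TMM factors its log2 ratios of days 3, 4 and 5 were 0.85, 0.90 and 0.88, and with DESeq2 factors 0.84, 0.86 and 0.87, all short of 2-fold, and with the study's limits on cells it was 0.34 or 0.33 on day 5. It stood at 8.83, 0.837, 0.913, 0.948 and 0.619 CPM on days 0, 3, 4, 5 and 7 (control library) and at 6.52, 1.91, 2.07, 2.04 and 1.55 CPM (heme library). The ratios of days 3 to 7 were 2.28 (1.53 to 3.5), 2.27 (1.48 to 3.56), 2.15 (1.44 to 3.28) and 2.5 (1.59 to 4.04), on 26 to 33 control UMIs. Of the 85 heme library UMIs of day 7, 45 lay in Klf1 cells, 16 in 2 globin-rich cells and 24 in the rest. Of the 26 control UMIs, 5, 11 and 10 did. Without both kinds of cell the ratios of days 3, 4, 5 and 7 were 2.5 (1.03 to 7.32), 1.37 (0.519 to 4.02), 5.00 (1.5 to 26.1) and 1.88 (0.866 to 4.40), on 3 to 10 control UMIs. Divided by the day 3 ratio, the log2 differences of days 4 and 5 were -0.0067 and -0.082.

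Alas1, the enzyme that heme is known to hold down, stood at 69.2, 178, 187, 134 and 145 CPM on days 0, 3, 4, 5 and 7 (control library) and at 76.1, 163, 128, 143 and 116 CPM (heme library). In whole cultures the ratios were 1.10 (1.02 to 1.18), 0.917 (0.890 to 0.945), 0.685 (0.661 to 0.710), 1.07 (1.03 to 1.11) and 0.799 (0.771 to 0.827). It was thus lower with heme on days 4 and 7, slightly lower on day 3 before the addition, and not lower on day 5, and in no case by 2-fold. Over 8 alternatives in scaling, cells or division by day 3, the day 4 ratio ran from 0.547 to 0.747 and the day 7 ratio from 0.658 to 0.871, but the day 5 ratio ran from 0.699 to 1.16 and so changed direction. The cell makeup of the cultures also moved with heme. Dendritic cell markers summed to 8063 CPM (control library) and 909 CPM (heme library) on day 7, and macrophage markers to 664 and 1260 CPM, while neutrophil markers summed to 66898 and 44771 CPM on day 5. The part of these shifts in the ratios of whole cultures was not tested.

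**Figure D3:**
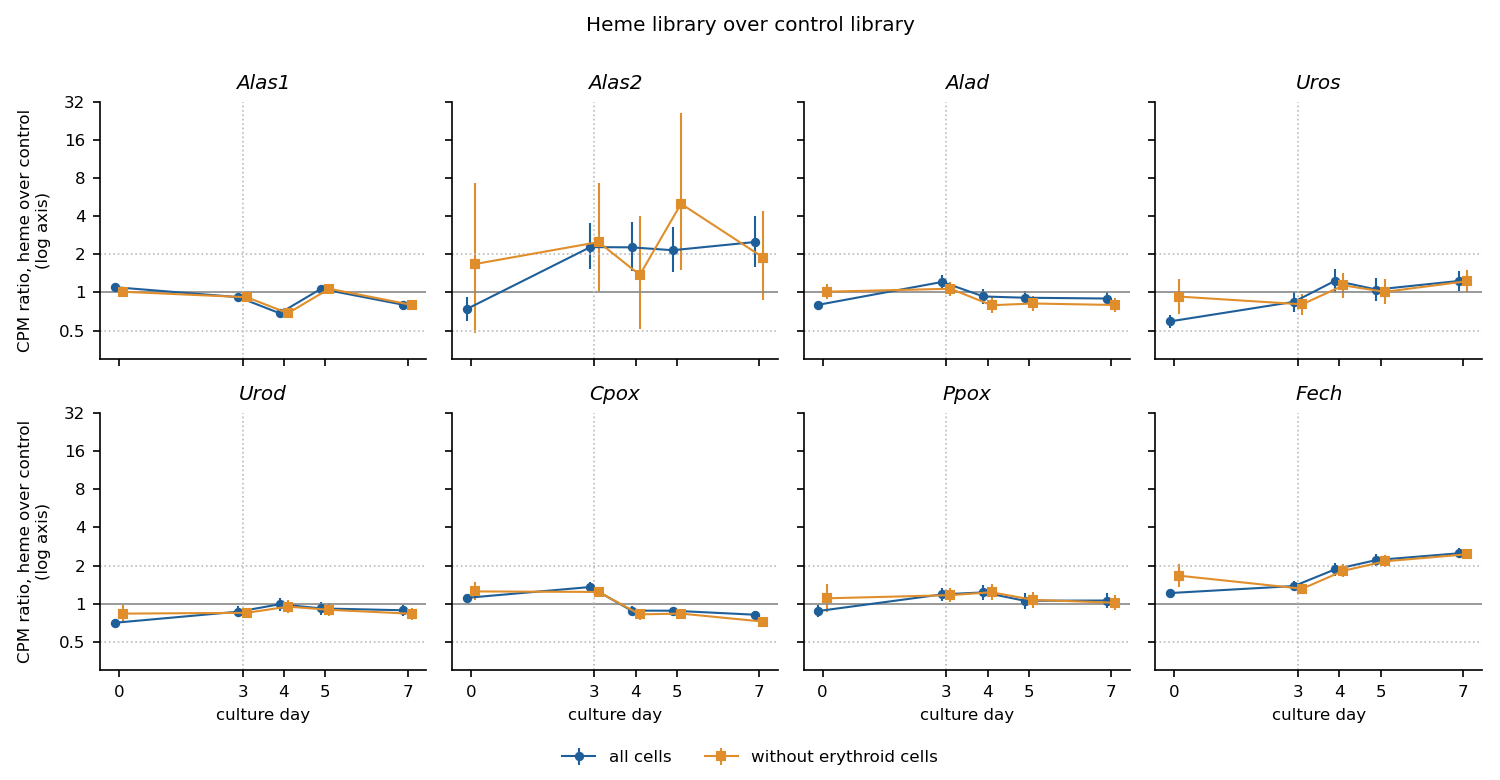
Ratio of CPM in the heme library over the control library (log axis) by culture day for each enzyme, with all cells (blue circles) and without Klf1 or globin-rich cells (orange squares). Bars are exact 95% intervals for counting error, dotted horizontal lines mark 2-fold, and the dotted vertical line marks the day of addition. Fech moves from 1.38 on day 3 to 2.5 on day 7 with all cells and from 1.31 to 2.46 without erythroid cells, and the Alas2 intervals without them are wide.

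The remaining members stayed within 2-fold on every day. Alad ratios ran from 0.799 to 1.21, Uros from 0.591 to 1.24, Urod from 0.708 to 0.992 and Ppox from 0.877 to 1.23. Cpox went from 1.36 (1.25 to 1.47) on day 3 to 0.883 (0.809 to 0.965) on day 4 and 0.820 (0.762 to 0.882) on day 7. Uros and Urod were furthest from 1 on day 0, before addition, at 0.591 (0.526 to 0.664) and 0.708 (0.665 to 0.755).

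To see the enzymes within cell types, 26214 cells of both libraries were grouped into 28 clusters by 2000 variable genes that excluded the members and the related genes. A cluster was named only where 3 or more markers of a cell type were raised, with at least 2 times as many as for any other type, and 14 were named. Alad, Uros, Urod and Cpox were highest in cluster 13, erythroid-like cells of day 0, at 277, 48.0, 145 and 443 CPM. Alas2, Ppox and Fech were highest in cluster 28, 95 erythroid-like cells with high globin from all days, at 81.9, 58.6 and 173 CPM. The median of the 28 clusters was 12.0 CPM for Alad, 21.5 CPM for Cpox and 19.0 CPM for Fech, and no cluster outside the erythroid-like ones passed 68.0, 65.0 and 40.2 CPM. Alas1 was lowest in cluster 13, at 16.1 CPM (14.4 to 17.8), but stood at 70.7 CPM in erythroid-like cluster 28. Unnamed clusters 23 and 27, mostly of day 0, held it at 18.7 and 21.5 CPM, the latter on 12 UMIs. Cluster 23 had 5 erythroid markers raised, Klf1 among them at 43.7 CPM, and 5 megakaryocyte markers. In the Klf1 cells of day 3, 28 (control library) and 89 (heme library), Alas1 stood at 163 and 161 CPM, against 178 and 163 CPM in other cells. Clusters 13 and 28 held 1 and 26 cells of day 3, so most of these Klf1 cells lay outside the erythroid-like clusters. They held Cpox at 42.3 and 122 CPM, against 370 and 455 CPM in the Klf1 cells of day 0. Alas1 was highest in cluster 19, at 359 CPM (349 to 369), and in cluster 9, at 293 CPM (286 to 299). Both were led by Elane and Prtn3, proteases of the neutrophil primary granule. Heme library cells made up 3.21% of cluster 19 and 96.6% of cluster 9.

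**Figure D4:**
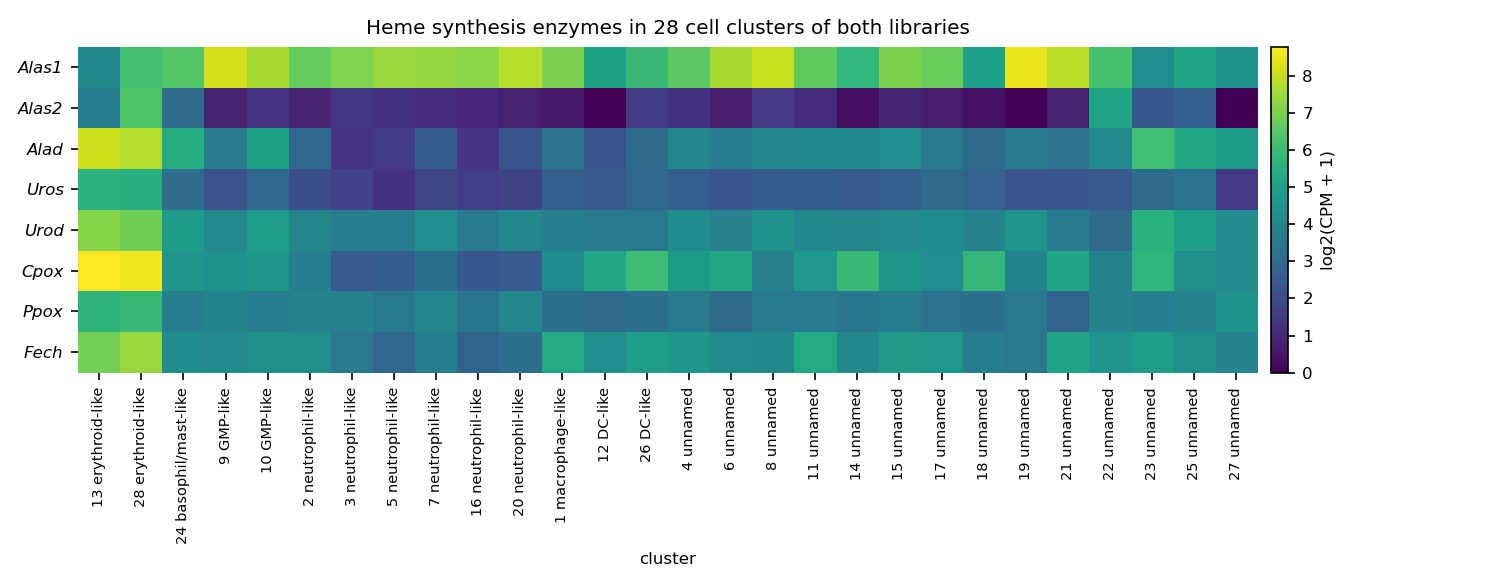
Level of each enzyme as log2(CPM + 1) in 28 clusters of the cells of both libraries, grouped by name. GMP stands for granulocyte-monocyte progenitor and DC for dendritic cell, and clusters that could not be named from markers are at the right. Alad to Fech are brightest in the erythroid-like clusters 13 and 28, and Alas1 is dimmest in cluster 13.

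Other types differed in single enzymes. Neutrophil-like clusters held Cpox at 4.34 to 12.4 CPM and Alad at 1.52 to 6.72 CPM, below the medians of all clusters. They held Ppox at 9.81 to 16 CPM and Urod at 11.1 to 18.6 CPM, on both sides of the medians of 11.6 and 16.9 CPM, and Alas1 at 104 to 224 CPM. Dendritic cell-like clusters 12 and 26 held Alas1 at 32.3 and 62.2 CPM and Cpox at 36.7 and 65.0 CPM. Unnamed clusters 14, 18 and 6 held Alas1 at 55.1, 31.6 and 201 CPM and Cpox at 59.9, 56.4 and 38.0 CPM. Cluster 10, granulocyte-monocyte progenitor-like cells of day 0, held Alas1 at 198 CPM and Alad at 33.6 CPM. Fech was at 40.2 CPM in both cluster 1, macrophage-like cells led by Marco and Spic, and cluster 11, unnamed cells with raised Marco. These clusters were 99.9% and 99.4% heme library cells. The clusters mostly of control cells that were led by Arg1 and Fn1 (cluster 6), by Car4 and Il1rn (cluster 8) and by Asgr2 and Cst3 (cluster 18) held Fech at 16.9, 16 and 11.9 CPM. Cluster and library cannot be told apart for these cells.

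Within clusters that held 50 or more cells of both libraries on a day, the Alas1 ratio of heme over control was below 1 wherever it could be compared after the addition. Alas1 could be compared in 12 such cluster and day pairs of days 0 and 3 and in 9 of days 4 and 5. All pairs come from the same 2 libraries, and clusters 3, 5, 7 and 16 of days 4 and 5 are all neutrophil-like, so the pairs are not replicates. On days 0 and 3 the median ratio was 0.966, and 3 of 12 intervals lay below 1, against 9.45% of all gene comparisons in the same cells. On days 4 and 5 the median ratio was 0.552, all 9 ratios lay below 1 and 7 of 9 intervals did, against 8.81%. No interval lay above 1 in either period, against 33.6% and 26.9% of all gene comparisons. The same clusters can be followed through the addition. Cluster 4, unnamed cells led by Thy1 and Phgdh with the monocyte markers Ly6c2 and Vcan raised, gave 87.9 against 91.0 CPM on day 3, a ratio of 0.965 (0.889 to 1.05). On day 4 it gave 90.3 against 138 CPM, 0.654 (0.560 to 0.763), and on day 5 78.0 against 151 CPM, 0.515 (0.421 to 0.630). The heme cells stayed between 78.0 and 90.3 CPM while the control cells went from 91.0 to 151 CPM. Cluster 16, neutrophil-like cells, gave 169 against 164 CPM on day 3, 1.03 (0.843 to 1.25), and 92.0 against 176 CPM on day 4, 0.524 (0.428 to 0.638).

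The other neutrophil-like clusters that could be compared on day 4, namely 3, 5 and 7, had the same order. Alas1 stood at 112 against 228 CPM in cluster 3, at 130 against 236 CPM in cluster 7 and at 89.2 against 195 CPM in cluster 5, with ratios of 0.489 (0.416 to 0.577), 0.552 (0.488 to 0.625) and 0.457 (0.273 to 0.721). In clusters 3, 4, 5, 7 and 16 of day 4, 1.43% to 7.16% of the tested genes had a lower ratio than Alas1. The median gene there had a ratio of 1.13 to 1.44. On day 5 the share of genes with a lower ratio was 2.80% in cluster 4, 15.0% in cluster 5, 24.8% in cluster 12 and 69.1% in cluster 22. In cluster 5 of day 5 Alas1 stood at 106 against 164 CPM, a ratio of 0.643 (0.438 to 0.914). In dendritic cell-like cluster 12 the ratio was 0.918 (0.667 to 1.26) on day 5. In low-UMI cluster 22 of day 5 it was 0.556 (0.208 to 1.36), where the median gene stood at 0.376. Before heme was added, the intervals below 1 were those of clusters 15, 18 and 20 on day 3, at 0.829 (0.711 to 0.97), 0.530 (0.321 to 0.866) and 0.750 (0.623 to 0.897), and that of cluster 18 rested on 31 and 41 UMIs. On day 7 Alas1 could not be compared within a cluster, since only the globin-led cluster 22 held 50 cells of both libraries and its Alas1 UMIs were fewer than 20.

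Fech could be compared in 11 and 7 such pairs. The interval lay above 1 in 4 of 11 on days 0 and 3 and in 3 of 7 on days 4 and 5, against 33.6% and 26.9% of all gene comparisons. The median ratios were 1.34 and 1.52. Cluster 4 gave 25.8 against 21.6 CPM on day 3, 26.3 against 17.2 CPM on day 4 and 32.4 against 18.2 CPM on day 5. The ratios were 1.20 (1.01 to 1.42), 1.52 (1.06 to 2.21) and 1.78 (1.13 to 2.90). In the same cells the median gene had ratios of 1.23, 1.28 and 1.28. Of the tested genes, 46.0%, 68.6% and 75.4% had a lower ratio than Fech on these days. On day 7 Fech could not be compared within a cluster, and most heme library cells of that day lay in clusters 1, 2, 11, 21 and 26, which were 95.8% to 99.9% heme library cells.

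**Figure D5:**
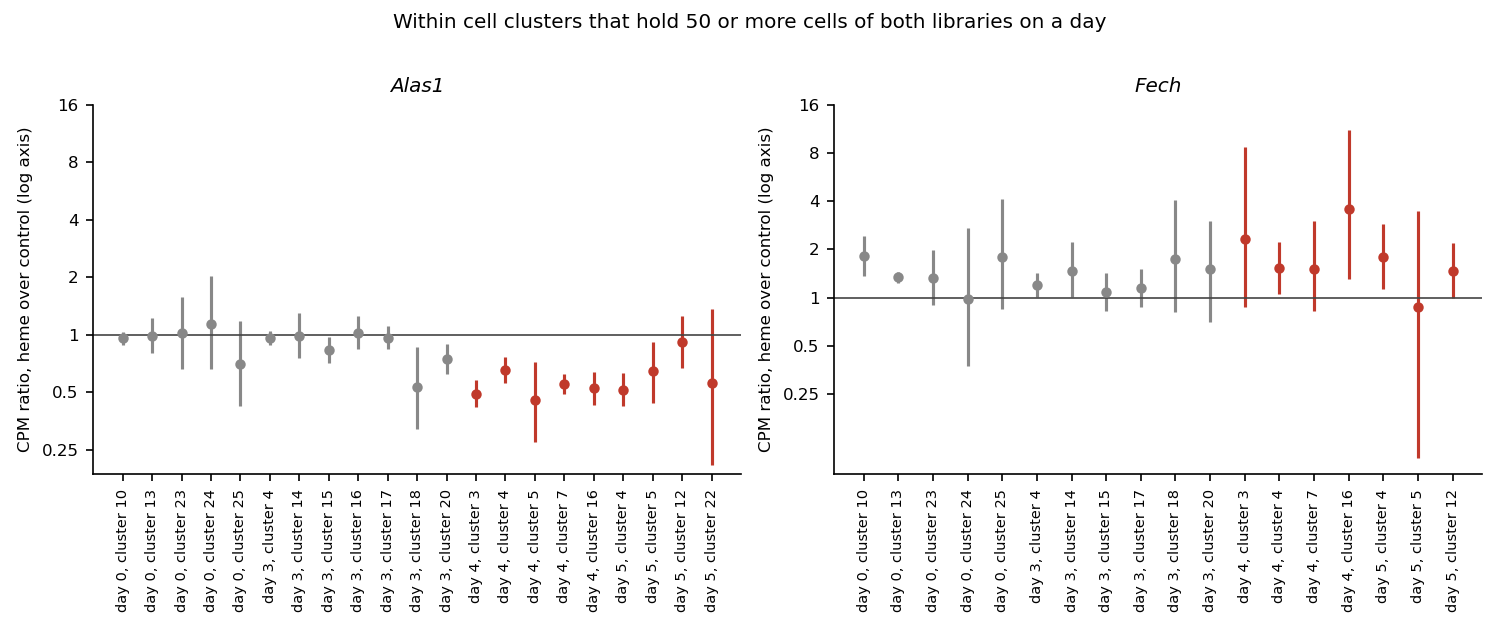
Ratio of CPM in heme library cells over control library cells (log axis) of Alas1 and Fech within clusters that held 50 or more cells of both libraries on a day, before the addition (grey, days 0 and 3) and after it (red, days 4 and 5). Bars are exact 95% intervals for counting error, and comparisons with fewer than 20 UMIs are left out. The red Alas1 points lie between 0.457 and 0.918.

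Genes beside the pathway were read on day 7 against the same shares of all tested genes, 15.2% higher and 7.32% lower. Of 22 genes of transport and cofactors, 3 were 2-fold or more higher and none lower in the heme library, which is near those shares. Abcb6, a transporter of porphyrins, stood at 16.5 against 1.41 CPM, a ratio of 11.7 (9.02 to 15.5), and Tspo2 at 1.24 against 0.548 CPM. Tspo stood at 495 against 906 CPM and Iscu, the scaffold for iron-sulfur clusters, at 68.2 against 115 CPM, ratios of 0.547 (0.538 to 0.555) and 0.592 (0.567 to 0.618). Of 14 tested regulators, 7 were higher and none lower. Nr1d1 and Nr1d2, the heme-binding Rev-erb receptors, stood at 2.40 against 0.214 CPM and at 12.9 against 2.10 CPM, ratios of 11.2 (5.73 to 25.1) and 6.14 (4.92 to 7.76). Nfe2l2, which encodes NRF2, stood at 175 against 228 CPM and Ppargc1b at 11.9 against 13.5 CPM.

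Of 10 genes of heme export, binding and breakdown, 8 were higher and none lower on day 7. Hmox1, the inducible heme oxygenase, stood at 5137 against 84.1 CPM, a ratio of 61.1 (59.1 to 63.2), and Flvcr2, a membrane transporter, at 1.06 against 0.0953 CPM, a ratio of 11.1 (4.10 to 42.0) on few UMIs. Hmox2, the constitutive form, stood at 50.2 against 63.4 CPM and Blvra at 65.3 against 55.6 CPM. Of 18 heme proteins and their partners, 5 were higher and 2 lower. Catalase, Cat, stood at 350 against 60.2 CPM and Mpo at 37.9 against 9.10 CPM. Nos2, the inducible nitric oxide synthase, stood at 0.0364 against 2.12 CPM, a ratio of 0.0172 (0.00205 to 0.0639), and Epx, the eosinophil peroxidase, at 0.164 against 0.453 CPM. The median log2 ratios of the 4 lists were 0.21, 0.87, 1.47 and 0.11 in this order, against 0.30 over all genes.

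Across the 10 sums of library and day, which share 2 libraries and are set mostly by the step from day 0 to day 3, Alad, Uros, Urod, Cpox and Ppox followed each other with Pearson's r of log2(CPM + 1) from 0.922 to 0.991. Fech followed them less closely, at 0.774 to 0.829, and Alas1 ran against every other member, at -0.908 to -0.840. Among 7764 genes with 20 CPM or more in a sum, the closest to Alad were C1qtnf12, Icam4 and Gdf3 (0.995 to 0.997), to Uros Igkc, Bex4 and Icam4 (0.991 to 0.994) and to Urod Gdf3, Igkc and Abhd16a (0.992 to 0.994). The closest to Cpox were Babam2, Alad and Tspan33 (0.99 to 0.994), to Ppox Ssbp2, Cited4 and Irf2bp1 (0.989 to 0.991) and to Fech Stx2, Mapk9 and Tal1 (0.987 to 0.99). Those of Alas2 were Swt1, Aqp1 and Prpsap1 (0.974 to 0.981), and those of Alas1 were Sem1, Ltb4r1 and 1810037I17Rik (0.960 to 0.962). These correlations are a description of 10 points with no test.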

How the data were processed

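The authors deposited filtered matrices of raw UMI counts per gene and cell barcode, made with Cell Ranger (4.0.0 per the processing notes, 5.0.0 in the matrix header) on GRCm38.p6 from 10x 3′ libraries of pooled, hashtagged cultures. They assigned hashtags with HTODemux in Seurat 3.2.3 at a positive quantile of 0.99. Here, barcodes called Singlet were kept with no limit on genes, mitochondrial or ribosomal UMIs, and barcodes called Doublet (1259 control, 1996 heme) or Negative (652, 1218) were left out. No other doublet caller was run. UMIs were summed by library and day and scaled to CPM by the total. Cells were clustered in Python 3.11.15 (igraph 0.11.9) by 15 components, 15 neighbours and a resolution of 1. TMM factors came from edgeR 4.0.16 and size factors from DESeq2 1.42.0, both as scaling alternatives only. Intervals were run on simulated Poisson counts without variation between cells or libraries, which covers counting error only. Members and lists were chosen with earlier results of these data known. Of each list, the text names the 2 genes with the largest and the 2 with the smallest ratio (20 or more UMIs) on day 7 and, in the control library, at day 0, and for each member the 3 genes most like it.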

Additional observations from a re-analysis of the deposited data

Results flagged for a closer look

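Alas1 moved in opposite directions in the 2 libraries at each step after day 3, with the counting intervals of both steps clear of 1. The difference between the libraries was not tested, since each is 1 sample. From day 3 to day 4 the log2 change was 0.074 (control library) and -0.35 (heme library). From day 4 to day 5 it was -0.48 and 0.16, and from day 5 to day 7 it was 0.11 and -0.30. Neutrophil markers summed to 138652 and 124098 CPM in the control and heme libraries on day 4, to 66898 and 44771 CPM on day 5 and to 4166 and 18364 CPM on day 7, and their part in these steps was not tested.

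Cpox also went opposite ways from day 3 to day 4, by 0.34 (control library) and -0.28 (heme library) on the log2 scale, and from day 3 to day 7, by 0.62 and -0.10. This difference was not tested either. Dendritic cell-like clusters 12 and 26 held Cpox at 36.7 and 65.0 CPM, but such levels were not particular to them. Unnamed clusters 14, 18 and 6, mostly of control cells, held it at 59.9, 56.4 and 38.0 CPM. Unnamed cluster 21, 99.1% heme library cells, held it at 36.3 CPM. Dendritic cell markers summed to 1059 CPM on day 3 and 8063 CPM on day 7 (control library) and to 1142 and 909 CPM (heme library). The part of any of these cells in the Cpox steps was not tested.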

How the results depend on the processing

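No paired analysis was possible because each group was 1 library, and for the same reason no replicate could be left out. The count of members 2-fold or more lower with heme on day 0 went from 0 to 1 under TMM factors, DESeq2 size factors, both sets of study limits on cells and division by day 3. The count higher went from 1 to 0 under TMM and DESeq2 factors on day 3, and on day 4 under these, under division by day 3 and without erythroid cells. On day 5 it went from 2 to 0 under TMM and DESeq2 factors, both sets of study limits and division by day 3, and on day 7 from 2 to 0 under division by day 3 and to 1 without erythroid cells. Alas2 reversed under division by day 3, to -0.0067 on day 4 and -0.082 on day 5 (log2). From day 0 to day 3, leaving out day 0 Klf1 cells took the count higher from 1 to 0 and the count lower from 7 to 2 in each library. The shares of all tested genes without those cells are not given here. In the heme library the count higher was also 0 with totals without ribosomal and mitochondrial genes and with the study limits other than the ribosomal one. The cause of these moves was not tested. Division by day 3 takes out an earlier difference only where that difference stayed the same on later days. Between days 0 and 3 it did not for Alas2, whose ratio went from 0.738 to 2.28. Under 8 alternatives the day 7 ratio of Fech ran from 1.81 to 2.5 and that of Alas1 from 0.658 to 0.871, and the day 4 ratio of Alas1 from 0.547 to 0.747. All 16 ratios of Klf1 over other cells at day 0 kept their direction under each of the 7 alternatives that could move them. With 30 components or a resolution of 0.5, 6 members rather than 4 were highest in the cluster with most Klf1. Depth limits Alas2, which held at most 33 control UMIs per day after day 0.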
